A study of Mus musculus with 6 samples.

Results

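The nuclear genes for the subunits of the 5 oxidative phosphorylation complexes were examined in cultured mouse germinal centre B cells treated with the GSK3 inhibitor CHIR99021. Members were taken by gene symbol: the Nduf A, B, C, S and V genes for complex I, the Sdh genes for complex II, the Uqcr genes for complex III, the Cox4 to Cox8 genes for complex IV and the Atp5 genes for complex V. In all, 84 gene entries matched, and the 79 whose mean over the 6 libraries reached 1 FPKM were kept, of 10096 genes that reached it and 23850 entries in the tables. FPKM is a level scaled for transcript length and library total, so genes can be compared with each other. The kept members were 36 of 37 for complex I, 4 of 4 for complex II, 8 of 8 for complex III, 14 of 18 for complex IV and 17 of 17 for complex V. The filter used the mean over both groups, and the naming rule did not use the change of any gene. The group of genes was, however, chosen with earlier results of these data known.

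All 6 libraries came from wild-type C57BL/6J mice. Naive follicular B cells spent 4 days on CD40L-expressing feeder cells in IL-4 (1 ng/ml). They were then treated with either CHIR99021 or its solvent DMSO for 36 h, on feeder cells and with IL-21 at 10 ng/ml (n = 3 libraries per treatment). The labels print 3 uM beside both agents, and they describe biological triplicates without saying whether these came from separate mice. The p-values therefore measure the spread between these cultures.

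The respiratory chain sits in the inner mitochondrial membrane. Complex I takes electrons from NADH and complex II from succinate, complex III passes them to cytochrome c, and complex IV hands them to oxygen. Complexes I, III and IV pump protons, and complex V, the ATP synthase, uses the proton gradient to make ATP. Complex II is also an enzyme of the citric acid cycle and is encoded wholly by nuclear genes, whereas each of the other complexes also holds subunits from the mitochondrial genome, which were not analysed here. In B cells, activation and entry into the germinal centre response are known to raise mitochondrial mass and respiration.

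Transcription factors known to act at nuclear respiratory genes include NRF1, the ETS factor GABP, YY1 and the oestrogen-related receptors. Their textbook recognition letters were searched on both strands of RefSeq promoter windows (GRCm38.p6, 250 bases before to 50 after each start), which were found for 67 of the 79 members. The NRF1 letters, GCGC and then A, any base and GCGC, stood in 17 of 67 members (25.4%), against 13.1% of 7604 tested genes and 5.19% of 27025 genes with a window. The YY1 letters AAGATGGC stood in 11 members (16.4%, against 6.06% of tested genes), the ETS letters CCGGAAGT in 5 (7.46%, against 10.4%) and the receptor letters TCAAGGTCA in 2 (2.99%, against 0.355%). Stretches from 6 promoters are shown, on the strand of the gene and ending before its start, to set members that changed with CHIR99021 beside members that were not called. The first 4 carry the NRF1 letters in capitals, in Sdhd and Ndufa5, which rose, and in Atp5k and Cox6a1, which were not called; the fifth, Uqcr11, which rose, carries the ETS letters, and the last, Atp5sl, which fell, the YY1 letters.
Sdhd (chr9:50603879-50603968, minus strand): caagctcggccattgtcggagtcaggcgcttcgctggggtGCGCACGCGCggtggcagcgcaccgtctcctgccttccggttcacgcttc
Ndufa5 (chr6:24527688-24527756, minus strand): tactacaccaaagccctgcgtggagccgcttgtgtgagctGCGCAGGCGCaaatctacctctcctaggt
Atp5k (chr5:108434400-108434489, minus strand): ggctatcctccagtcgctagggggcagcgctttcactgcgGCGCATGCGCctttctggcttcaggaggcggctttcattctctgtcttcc
Cox6a1 (chr5:115349071-115349160, minus strand): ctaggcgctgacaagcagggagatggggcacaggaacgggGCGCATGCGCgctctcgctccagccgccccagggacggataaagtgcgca
Uqcr11 (chr10:80406840-80406927, minus strand): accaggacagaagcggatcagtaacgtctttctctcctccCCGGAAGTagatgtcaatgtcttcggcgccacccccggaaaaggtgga
Atp5sl (chr7:25619400-25619487, plus strand): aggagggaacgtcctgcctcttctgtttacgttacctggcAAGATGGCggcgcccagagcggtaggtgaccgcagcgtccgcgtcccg
The NRF1 letters were thus present both in members that rose and in members that were not called. The median log2 change was 0.10 for the 17 members with them and 0.09 for the other members with a window. A match describes the letters only, and binding was not measured.

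The members were among the most abundant mRNAs of these cells. Their median level was 133 FPKM, against 11.5 FPKM for all tested genes, and 64 of 79 lay in the top 10% of tested genes. By complex, the median was 93.4 FPKM for complex I, 92.4 for II, 169.7 for III, 346 for IV and 298 for V. The highest were Atp5b, the catalytic beta subunit of the ATP synthase, at 769 FPKM, Cox4i1, a regulatory subunit of cytochrome c oxidase, at 673, Cox6b1 at 602 and Uqcrq, a small subunit of complex III, at 562. In complex I the highest were Ndufa3 at 369 FPKM, Ndufa4 at 359 and Ndufv3 at 209.

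**Figure D1:**
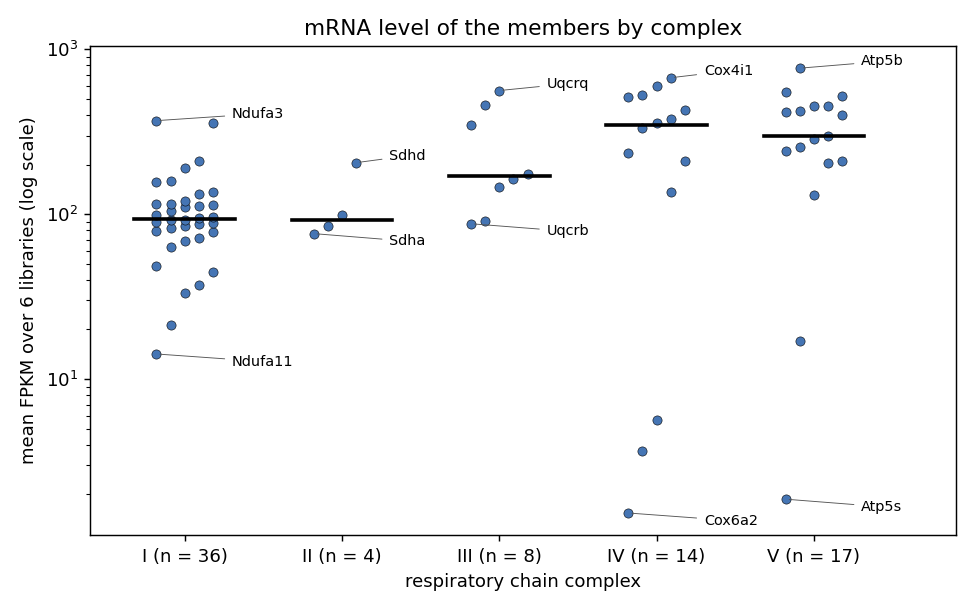
Mean FPKM over the 6 libraries (log scale) of the 79 members by complex, with 1 point per gene and a black bar at the median of each complex. Complexes IV and V sit highest, with medians of 346 and 298 FPKM, and the lowest members are Cox6a2 and Atp5s.

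The 5 entries below the filter were the isoforms known from other tissues or states. Cox8b and Cox8c were listed at 0 in all 6 libraries, Ndufa4l2 averaged 0.0569 FPKM and was listed at 0 in 5 of them, and Cox7b2 averaged 0.0833. The entry nearest the filter from below was Cox4i2, an isoform known for its response to low oxygen, at 0.621 FPKM. The nearest kept entries were Cox6a2, the heart and muscle isoform, at 1.54 FPKM and Atp5s at 1.87. The major isoforms therefore supplied nearly all of the paired subunits. Cox4i1 made up 99.9% of Cox4 FPKM, Cox6a1 99.7% of Cox6a and Cox6b1 99.4% of Cox6b over the 6 libraries.

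With CHIR99021, 11 members rose and 1 fell (limma on log2(FPKM + 1), adjusted p under 0.05 over all tested genes). These are 13.9% and 1.27% of the 79 members, while 8.13% of all tested genes were called higher and 13.3% lower (21.4% either way). The rises were small: the 11 folds ran from 1.26 to 1.50. They came from each complex, with 2 of 36 in complex I, 1 of 4 in II, 3 of 8 in III, 1 of 14 in IV and 4 of 17 in V. The only fall was that of Atp5sl, which shares its name with the ATP synthase genes but is known as Dmac2, a factor for building the membrane arm of complex I. Without Atp5sl and Atp5s, another entry matched by name only, no member was called lower.

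The count of 11 rises fell when any 1 of the 6 libraries was left out. The count was 8 without DMSO replicate 1, 6 without DMSO replicate 2, 7 without DMSO replicate 3, and 4, 7 and 2 without CHIR99021 replicates 1, 2 and 3. Without both libraries of replicate number 1 or of number 3 it was 0. With upper-quartile scaling 15 members were called higher and 1 lower (11% and 11.6% of all tested genes), and with quantile scaling 18 and 1 (12.2% and 11.6%). Over 14 planned fits, Ndufa12, Uqcrfs1 and Atp5sl were called in 14, Sdhd in 13, Cox7c in 11, and Uqcrq, Uqcr11 and Atp5b in 10. Atp5o was called in 8, Ndufa5 and Atp5f1 in 7 and Atp5g1 in 6, and the direction of all 12 was kept in each.

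The library titles carry replicate numbers, which were treated as pairs across treatments because same-numbered libraries correlated. A fit with that number as a block called 26 members higher and 7 lower (32.9% and 8.86%). Of all tested genes, it called 18.4% higher and 24.4% lower (42.8% either way). All 12 members called without the block were called with it. Of the 79 members, 57 had a positive and 22 a negative log2 change, while of all tested genes 4562 were positive and 5534 negative. The median change was 0.10 for members and -0.04 for all tested genes. Both medians moved up with other scalings, to 0.16 and 0.01 with upper-quartile and 0.14 and 0.03 with quantile scaling, so the sign of the median over all genes depended on the scaling. By complex the median log2 change was 0.05 for I, 0.22 for II, 0.22 for III, 0.11 for IV and 0.10 for V. With upper-quartile scaling the medians were 0.11, 0.27, 0.28, 0.17 and 0.16. Leaving out 1 library gave medians from -0.04 (without DMSO replicate 2) to 0.12 (without CHIR99021 replicate 2) for I, from 0.17 to 0.29 for II and from 0.16 to 0.27 for III. For IV they ran from 0.02 (without DMSO replicate 2) to 0.19 (without DMSO replicate 1), and for V from 0.06 (without DMSO replicate 2) to 0.15 (without CHIR99021 replicate 2).

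The groups did not overlap for 20 members higher and 3 lower in CHIR99021 (25.3% and 3.8%), against 17% and 23.1% of all tested genes (40.1% either way). In 3 of 3 replicate numbers, 39 members were higher and 12 lower (49.4% and 15.2%), against 29.3% and 37.3% of all tested genes.

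**Figure D2:**
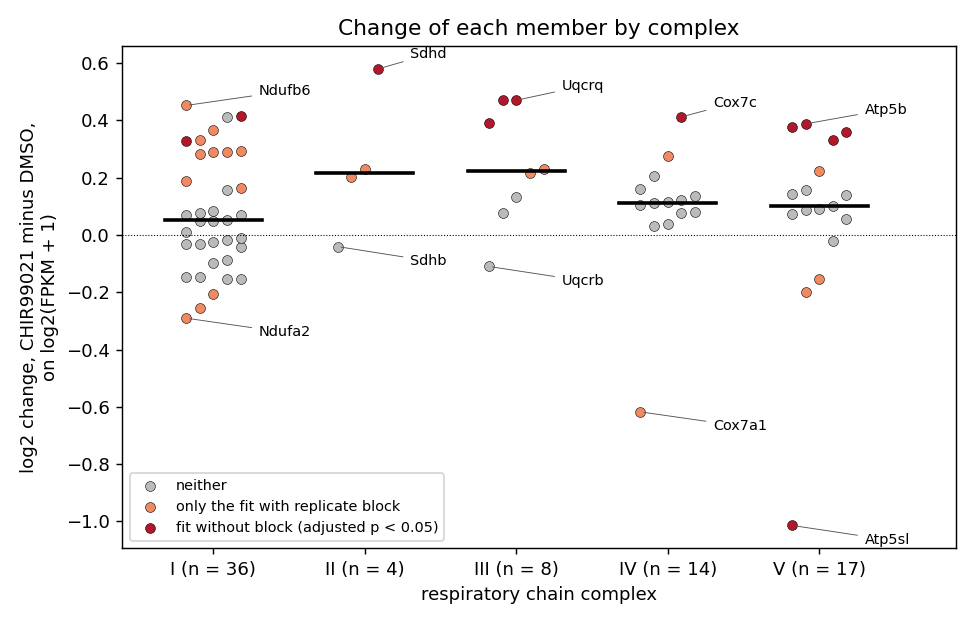
Log2 change, CHIR99021 minus DMSO on log2(FPKM + 1), of the 79 members by complex, with the median as a black bar. Red points passed the test without the replicate block (11 above 0 and Atp5sl below), orange points passed with the block but not without it (15 above 0 and 6 below), and grey points passed neither.

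The mRNA level of each complex was also summed in each library. The 4 complex II genes together gave 414, 383 and 446 FPKM in DMSO replicates 1, 2 and 3 and 515, 478 and 562 FPKM in CHIR99021. The lowest CHIR99021 sum was above the highest DMSO sum, and on unscaled FPKM the ratio was nearly the same for each replicate number (1.24, 1.25 and 1.26). The ratios were less alike with upper-quartile scaling (1.32, 1.26 and 1.32) and as shares of summed FPKM (1.24, 1.18 and 1.23). The 8 complex III genes gave 1975, 1646 and 1944 FPKM in DMSO and 2222, 2003 and 2421 in CHIR99021, again without overlap. Complex I gave 3905 ± 442 FPKM in DMSO and 4037 ± 257 in CHIR99021 (SD, n = 3), and its CHIR99021 range lay within the range of DMSO. The FPKM sums for complexes IV and V overlapped between treatments as well. The mean sum was higher in CHIR99021 by 25.0% for II, 19.4% for III, 9.12% for V, 8.95% for IV and 3.39% for I. With upper-quartile scaling these differences were 30.2% for II, 24.3% for III, 13.6% for V, 13.4% for IV and 7.65% for I. These are descriptions of sums in which the most abundant genes weigh most, with no test.

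**Figure D3:**
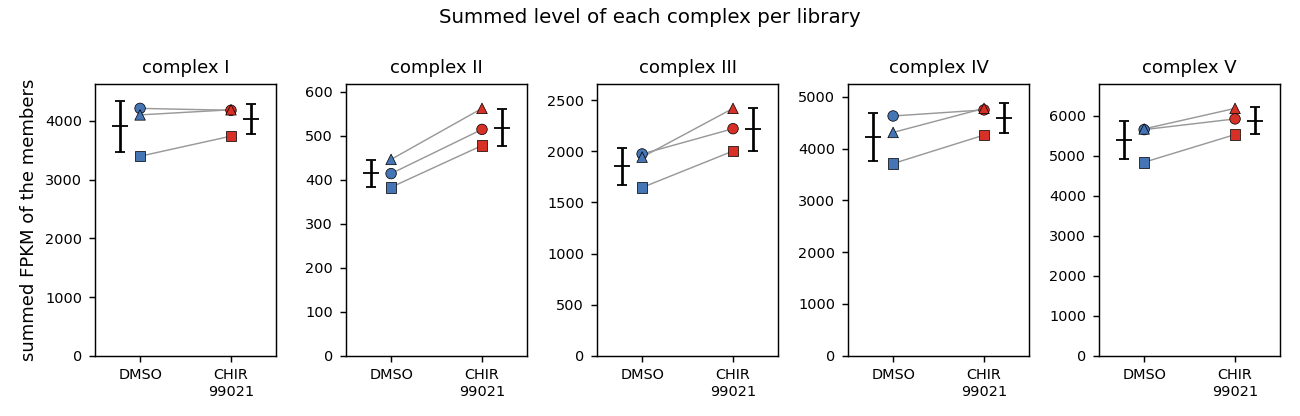
Summed FPKM of the members of each complex in each library, by treatment, with lines joining libraries of the same replicate number and black bars for the mean and SD (n = 3). The treatments separate for complexes II (383 to 446 FPKM against 478 to 562) and III (1646 to 1975 against 2003 to 2421) and overlap for I, IV and V.

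As a share of all FPKM of a library, the 79 members made up 2.71 ± 0.0492% in DMSO and 2.89 ± 0.0482% in CHIR99021 (SD, n = 3). The DMSO libraries ran from 2.65% to 2.74% and the CHIR99021 libraries from 2.85% to 2.95%. On this scale the treatments separated for complex IV (0.704% to 0.750% in DMSO and 0.765% to 0.776% in CHIR99021) and for complex V (0.915% to 0.942% and 0.960% to 1.00%), as they did for II and III. Complex I still overlapped, at 0.644% to 0.682% and 0.672% to 0.681%, with mean shares of 0.669% and 0.677%. The separation of complexes IV and V thus depended on the scaling. In a bulk sample, a change in the number of cells that express a gene and a change in RNA per cell cannot be told apart.

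Complex I is the largest complex, with a catalytic core of flavin and iron-sulphur subunits surrounded by accessory subunits. None of the 7 nuclear core subunits was called, and their median log2 change was 0.05. With the block, the iron-sulphur subunits Ndufs1 (log2 change 0.29, adjusted p = 0.0101 by limma) and Ndufs7 (0.28, adjusted p = 0.0251) were called higher. Ndufs7 read 78.7, 80.8 and 95.6 FPKM in DMSO and 100.02, 109 and 101 in CHIR99021, so its groups did not overlap.

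Among the 29 accessory subunits, Ndufa12 and Ndufa5 rose. Ndufa12 (chr10:94199009-94220948), an accessory subunit at the matrix arm, read 137, 126 and 138 FPKM in DMSO and 179.5, 179.3 and 178 in CHIR99021. It rose 1.34-fold (log2 change 0.42 ± 0.08 SE, adjusted p = 0.0077 by limma), with the 3 CHIR99021 libraries within a narrow range above all DMSO libraries. Ndufa5 (chr6:24518666-24527687), another matrix arm subunit, read 39.0, 39.3 and 39.8 FPKM in DMSO and 45.0, 49.4 and 55.2 in CHIR99021. It rose 1.27-fold (log2 change 0.33 ± 0.09 SE, adjusted p = 0.041 by limma), again without overlap. Over the 14 planned fits its adjusted p reached 0.146, and it reached 0.268 with both libraries of a replicate number left out.

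With the block, 9 further complex I members were called higher, the 2 core subunits above and Ndufa4, Ndufa10, Ndufb2, Ndufb3, Ndufb4, Ndufb6 and Ndufc2. The one with the largest change was Ndufb6, a membrane arm subunit, at 95.1, 73.7 and 115 FPKM in DMSO and 121, 131 and 130.4 in CHIR99021 (log2 change 0.45). Its adjusted p was 0.0696 without the block and 0.0208 with it (limma). Ndufa4 is counted here by its name, although it is known to be a subunit of complex IV; counted there, it left the median of complex IV at 0.11. The block also called Ndufa2, Ndufa3 and Ndufa11 lower, with log2 changes of -0.29, -0.25 and -0.21. Ndufa3 read 509.6, 307 and 397 FPKM in DMSO and 388, 287 and 328 in CHIR99021, so that its groups overlapped while each numbered pair was lower. With the block, 9 of the 29 accessory subunits of complex I were thus called higher and 3 lower (31% and 10.3%). Of all tested genes, 18.4% were called higher and 24.4% lower with the block. The most variable was Ndufs5, singled out after its values were seen, at 39.3, 12.1 and 49.8 FPKM in DMSO and 50.9, 25.0 and 45.6 in CHIR99021 (adjusted p = 0.61 by limma). Its lowest library in both treatments was replicate 2.

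Complex II has only 4 subunits: the flavoprotein Sdha, the iron-sulphur protein Sdhb, and the membrane anchors Sdhc and Sdhd. Sdhd (chr9:50596340-50603849) had the largest rise of all members. It read 168, 148 and 176 FPKM in DMSO and 250.1, 215 and 274 in CHIR99021, with no overlap. It rose 1.50-fold (log2 change 0.58 ± 0.11 SE, adjusted p = 0.011 by limma), with an adjusted p of 0.0509 when CHIR99021 replicate 3 was left out. Its partner anchor Sdhc read 82.4, 67.5 and 85.6 FPKM against 97.1, 78.5 and 101 (log2 change 0.23). Sdhc was called with the block but not without it (adjusted p = 0.251 without and 0.0126 with it, limma), and its groups overlapped.

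The catalytic Sdha read 60.1, 74.5 and 78.2 FPKM in DMSO and 74.0, 87.5 and 83.1 in CHIR99021, and it too was called with the block but not without it (adjusted p = 0.264 without and 0.0371 with it, limma). Sdhb read 103, 93.3 and 106 FPKM against 93.5, 96.6 and 104, with overlapping groups and a log2 change of -0.04 (adjusted p = 0.789 by limma). The membrane anchor Sdhd was the most abundant complex II mRNA, at 205 FPKM on average, and the one whose change passed the test without the block. It alone made up most of the difference in the complex II sum: its mean was 164 FPKM in DMSO and 247 in CHIR99021, against summed means of 415 and 518.

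Complex III had 3 members that rose. Uqcrfs1 (chr13:30540312-30545316), the Rieske iron-sulphur protein at the site where ubiquinol is oxidised, read 77.9, 70.3 and 81.5 FPKM in DMSO and 108, 101 and 109.7 in CHIR99021. It rose 1.39-fold (log2 change 0.47 ± 0.09 SE, adjusted p = 0.00789 by limma). Uqcrq (chr11:53428948-53430831), which supports the cytochrome b part of the complex, read 492, 410.5 and 513 FPKM in DMSO and 645, 600.9 and 712 in CHIR99021. It rose 1.38-fold (log2 change 0.47 ± 0.12 SE, adjusted p = 0.0265 by limma). Uqcr11 (chr10:80402997-80406821), the smallest subunit, read 165, 142 and 148 FPKM against 213, 181 and 204, a 1.31-fold rise (log2 change 0.39 ± 0.10 SE, adjusted p = 0.0264 by limma).

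None of these 3 genes overlapped between treatments. The large core proteins Uqcrc1 and Uqcrc2 had log2 changes of 0.23 and 0.21 and were called with the block but not without it (adjusted p = 0.013 and 0.0151 with the block, limma). Uqcrc2 read 138, 129 and 141 FPKM in DMSO and 155, 154 and 165 in CHIR99021, without overlap. The remaining members Uqcr10, Uqcrh and Uqcrb were called by neither fit, with log2 changes of 0.13, 0.08 and -0.11.

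Cytochrome c1 and cytochrome c, which the naming rule leaves out, belong to the same part of the chain and also rose. Cyc1, the haem subunit of complex III that donates electrons to cytochrome c, rose from 109 ± 9.98 to 137 ± 6.93 FPKM (adjusted p = 0.041 by limma). Cycs, cytochrome c itself, rose from 44.8 ± 3.91 to 57.6 ± 5.52 FPKM (adjusted p = 0.0461 by limma). They were 2 of the 6 tested genes in a list of carriers and subunits outside the rule, of which 0 fell, with a median log2 change of 0.32 and 5 called higher with the block. The shares over all tested genes were 8.13% higher and 13.3% lower, and 18.4% and 24.4% with the block. The Cyc1 call was lost without any 1 library, and the Cycs call without any 1 library other than CHIR99021 replicate 1.

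In complex IV, 1 of 14 members rose. Cox7c (chr13:86044798-86046795), a small structural subunit, read 209, 199.8 and 194 FPKM in DMSO and 291, 239 and 275 in CHIR99021. It rose 1.34-fold (log2 change 0.41 ± 0.10 SE, adjusted p = 0.0203 by limma), with no overlap. The most abundant members were called by neither fit: Cox4i1, Cox6b1 and Cox8a had log2 changes of 0.14, 0.03 and 0.21. Cox4i1 read 661, 578 and 686 FPKM in DMSO and 730.2, 672 and 709 in CHIR99021, with overlapping groups.

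The Cox7a isoforms went opposite ways with the block. Cox7a2, the widely expressed isoform, read 198, 155 and 215 FPKM in DMSO and 231, 197 and 258 in CHIR99021 (log2 change 0.28, adjusted p = 0.22 without and 0.00613 with the block, limma). Cox7a1, the heart and muscle isoform, read 7.42, 4.23 and 9.21 FPKM against 6.83, 2.13 and 4.07 (log2 change -0.62, adjusted p = 0.264 without and 0.0264 with the block, limma). Cox7a1 supplied 3.46 ± 0.741% of Cox7a1 and Cox7a2 FPKM in DMSO and 1.83 ± 0.934% in CHIR99021, and the groups overlapped. Cox7a2l, related in sequence and known to join complexes III and IV into supercomplexes, was called by neither fit (log2 change 0.11).

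**Figure D4:**
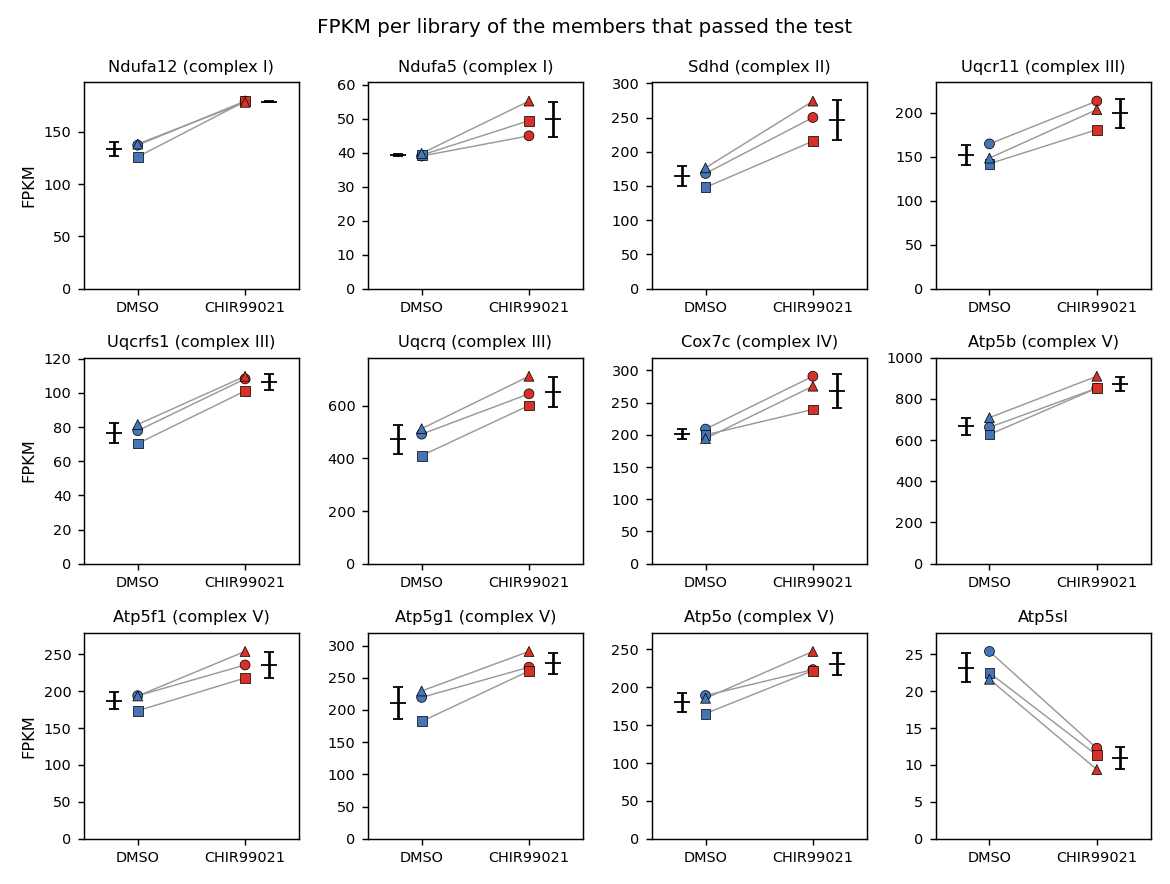
FPKM of the 12 members called by limma in each library, by treatment, each axis starting at 0, with marker shapes for replicate numbers 1 (circle), 2 (square) and 3 (triangle) and black bars beside the points for the mean and SD (n = 3). In each panel the 3 CHIR99021 values lie above the 3 DMSO values, except Atp5sl, where they lie below.

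The ATP synthase has a catalytic F1 head, a peripheral stalk and a proton-conducting ring of c subunits in the membrane, and members of each part rose. In the head, Atp5b (chr10:128083307-128090388) read 662, 627 and 709 FPKM in DMSO and 852, 852 and 909.9 in CHIR99021. It rose 1.31-fold (log2 change 0.39 ± 0.09 SE, adjusted p = 0.0227 by limma). Its partner in the head, the alpha subunit gene Atp5a1, had a log2 change of 0.14 and was called by neither fit. Atp5d, the delta subunit of the central stalk, was called higher and Atp5e, the epsilon subunit beside it, lower with the block but not without it (log2 changes 0.22 and -0.15).

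In the peripheral stalk, Atp5o (chr16:91925223-91931630), the oligomycin sensitivity protein, read 189, 165 and 185 FPKM in DMSO and 223, 222 and 247 in CHIR99021. It rose 1.28-fold (log2 change 0.36 ± 0.09 SE, adjusted p = 0.0273 by limma). Atp5f1 (chr3:105942863-105960248), the b subunit, read 194, 173 and 193 FPKM against 235, 218 and 254, a 1.26-fold rise (log2 change 0.33 ± 0.09 SE, adjusted p = 0.0381 by limma). The stalk subunits Atp5h and Atp5j were called by neither fit, with log2 changes of -0.02 and 0.08. In the membrane part, Atp5j2, the f subunit, was called lower with the block but not without it (log2 change -0.20).

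The c subunit is encoded by 3 genes whose mature proteins are known to be identical, Atp5g1, Atp5g2 and Atp5g3. Only Atp5g1 passed the test of the 3. Atp5g1 (chr11:96072793-96075694) read 219, 182 and 229 FPKM in DMSO and 266, 260.5 and 291 in CHIR99021, a 1.30-fold rise (log2 change 0.38 ± 0.11 SE, adjusted p = 0.042 by limma). Over the 14 planned fits its adjusted p reached 0.157, and it reached 0.2 with both libraries of a replicate number left out. Atp5g2 and Atp5g3 had log2 changes of 0.06 and 0.14 and were called by neither fit.

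Atp5g1 supplied 18.7%, 20.2% and 20.8% of c subunit FPKM in DMSO and 22.3%, 23.4% and 23.8% in CHIR99021, without overlap. The share of Atp5g2 was 39.0 ± 2.76% in DMSO and 36.3 ± 2.06% in CHIR99021, and that of Atp5g3 was 41.1 ± 1.80% and 40.5 ± 1.34%, each with overlapping groups. The difference between the 3 genes in response was not tested.

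Atp5sl (chr7:25619493-25625550) had the largest change of any member in either direction and the smallest adjusted p. It read 25.4, 22.5 and 21.6 FPKM in DMSO and 12.3, 11.3 and 9.38 in CHIR99021, 2.11-fold lower (log2 change -1.01 ± 0.12 SE, adjusted p = 0.00156 by limma). Its level was low for the group, at 17.1 FPKM on average.

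Assembly factors, which help to build the complexes and are not part of them, were taken from a separate list. Of 49 tested, 2 rose and 3 fell, while 8.13% of all tested genes were called higher and 13.3% lower. With the block, 9 were called higher and 5 lower, against 18.4% and 24.4% of all tested genes. The median log2 change of the 49 was 0.09, and the list was not tested as a set. For complex I, Ndufaf2, an assembly chaperone, rose from 9.51 ± 2.18 to 15.3 ± 1.01 FPKM (adjusted p = 0.0208 by limma). Tmem126b, a factor for the membrane arm, fell from 13.8 ± 1.40 to 10.01 ± 1.22 FPKM (adjusted p = 0.0472 by limma). That call was lost without any 1 of the 6 libraries, with both other scalings, without the filter and without the variance trend, and its adjusted p was 0.245 without both libraries of replicate number 1. Sdhaf2, which attaches the flavin to Sdha, fell from 20.8 ± 1.04 to 14.8 ± 0.915 FPKM (adjusted p = 0.0112 by limma).

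Both complex IV factors that changed are needed to build the enzyme, and they went opposite ways. Cox10, which makes haem for cytochrome c oxidase, rose from 12.1 ± 0.618 to 17.3 ± 1.65 FPKM (adjusted p = 0.0166 by limma). Pet100 fell from 12.1 ± 0.943 to 4.79 ± 1.15 FPKM (adjusted p = 0.0023 by limma). None of the 6 tested factors for complex III or the 3 for complex V was called without the block. With it, Tmem70, an assembly factor of the ATP synthase, was called higher (log2 change 0.31, adjusted p = 0.0302 by limma). Of the factors that changed, single libraries decided the calls of Ndufaf2 (lost without DMSO replicate 1 or 3 or CHIR99021 replicate 1 or 3), Sdhaf2 (lost without CHIR99021 replicate 3) and Cox10 (lost without CHIR99021 replicate 2 or 3). The call of Pet100 was kept in all 14 planned fits.

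Of 12 nuclear regulators of respiratory genes, 10 were tested and limma called 0 in either direction, with 1 called higher with the block. That gene was Pprc1, a PGC-1 related coactivator (log2 change 0.67, adjusted p = 0.108 without and 0.00125 with the block, limma). Nrf1, Gabpa and Tfam had log2 changes of -0.05, -0.11 and 0.00. The coactivators Ppargc1a and Ppargc1b were below the filter, and Ppargc1a read at most 0.283 FPKM in any library. Of 9 tested genes for copying and transcribing the mitochondrial genome, 1 rose: Lrpprc, which stabilises mitochondrial mRNAs, from 25.6 ± 4.60 to 40.9 ± 4.44 FPKM (adjusted p = 0.0173 by limma). Its call was lost without CHIR99021 replicate 2 or 3. With the block, Polg and Polg2, the subunits of the mitochondrial DNA polymerase, were called lower (log2 changes -0.35 and -0.44, adjusted p = 0.00748 and 0.00618, limma). Over all tested genes, limma called 8.13% higher and 13.3% lower, and 18.4% and 24.4% with the block. The counts in these short lists were not tested against those shares.

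The members also differed between libraries within a treatment. Among the 3 DMSO libraries, replicate 2 was the lowest for 66 of 79 members (83.5%), against 35.6% of all tested genes. Among the CHIR99021 libraries, it was the lowest for 58 of 79 (73.4%), against 26.4% of all tested genes. Replicate 2 also had the lowest FPKM total over all entries in both treatments, at 527290 in DMSO and 556644 in CHIR99021. As a share of that total, the 79 members made up 2.73%, 2.65% and 2.74% in the DMSO libraries. In the CHIR99021 libraries they made up 2.85%, 2.88% and 2.95%, so replicate 2 was not the lowest there on this scale. The proliferation marker Mki67 read 33.2, 75.4 and 40.6 FPKM in DMSO and 36.5, 59.3 and 38.4 in CHIR99021, highest in replicate 2 of both. The part of proliferation or of the library totals in the member levels was not tested.

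Markers of the cell types were measured beside the members. All 7 tested B cell markers were lower in CHIR99021 by limma, with summed FPKM from 2610 to 3464 in DMSO and from 1301 to 1540 in CHIR99021. Of 7 germinal centre markers 1 fell (sums of 162 to 210.2 FPKM and 153 to 184), and of 6 tested plasma cell markers 3 rose (sums of 503 to 786 FPKM and 506 to 631). The 3 plasma cell markers that rose were Prdm1, Irf4 and Slamf7. With the block 4 plasma cell markers were called higher and 1 lower. The lower one was Jchain, the most abundant, at 452 ± 135 FPKM in DMSO and 289 ± 57.5 in CHIR99021. Its log2 change was -0.62 (adjusted p = 0.1 without and 0.00134 with the block, limma). The T cell marker Cd3e and the myeloid marker Cd14 were listed at 0 in all libraries; of 2 tested markers each, 1 T cell marker (Cd28) rose and 1 myeloid marker (Itgam) fell. T cell markers summed to 13.5 to 17.0 FPKM in DMSO and 20.0 to 25.7 in CHIR99021, myeloid markers to 6.63 to 8.18 and 2.54 to 7.16. The higher T cell sum came from Cd28, at 0.256 ± 0.120 FPKM in DMSO and 9.53 ± 1.95 in CHIR99021. Lck, the other tested T cell marker, read 14.4 ± 0.988 and 12.2 ± 1.36 FPKM and was called by neither fit. Fibroblast-like feeder markers summed to 355, 127 and 84.9 FPKM in DMSO and 274, 109 and 64.2 in CHIR99021, lower in each numbered pair. Of 6 tested, 1 was called lower (Thy1) and 4 with the block (Col1a2, Col3a1, Fn1 and Thy1). Beside these marker counts, 8.13% of all tested genes were called higher and 13.3% lower, and 18.4% and 24.4% with the block. The part of these cell types in the member changes was not tested.

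Members also had short annotated transcripts, with a median length of 655 bases (n = 78, GENCODE M21) against 2072 for tested genes. The length of a gene was the median over its annotated protein-coding transcripts, which need not be that of the mRNA expressed here. Across members the log2 change correlated with the log10 length at r = 0.30 (n = 78) and with the log2 level at r = 0.23 (n = 79), a description over genes that share the same 6 libraries. Within a library, the Cufflinks confidence limits of the median member lay 7.22% to 9.54% of its FPKM away from the value, closer than for the median tested gene (12.5% to 15.4%). For 7 of the called members (Ndufa12, Sdhd, Uqcrfs1, Uqcrq, Atp5b, Atp5o and Atp5sl) the limits of the DMSO libraries lay wholly apart from those of the CHIR99021 libraries. The share of all tested genes with limits apart was not computed, so the 7 have no background to be set against. The limits cover the uncertainty of single libraries, not the spread between cultures.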

How the data were processed

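Members and gene lists were chosen with earlier results of these data known. The authors deposited gene FPKM with confidence limits per library, per the file headers. The submitters' processing notes name build mm10, Cufflinks 2.2.1, TopHat2 2.1.1 and cutadapt 1.12; annotation and strand setting were not given in the sources used here. FPKM are not counts and the number of fragments is not stated, so no count model was used. The 10096 genes averaging at least 1 FPKM were tested on log2(FPKM + 1) with limma 3.58.1 in R 4.3.3 (lmFit, eBayes with a variance trend, two-sided, Benjamini-Hochberg over all tested genes, threshold 0.05), after a check on simulated data. Log2 changes are on that scale, and folds are ratios of mean FPKM. Deviations from the group mean correlated across genes at 0.535, 0.490 and 0.517 between same-numbered libraries and at -0.352 to -0.140 otherwise. Deviations cancel within a group, so positive values for like numbers go with negative ones for unlike numbers by construction. The title numbers were therefore treated as pairs, inferred from the same-numbered values, and fitted as a block in an alternative. Other alternatives changed the pseudocount, filter, scaling, variance model and libraries. Named genes are those called by either fit, those with the highest levels or extreme changes per complex, isoforms, all Sdh genes, entries nearest the filter and leading genes of the related lists, of which 10 were found under older symbols. Coordinates are mm10 gene spans of the deposited tables, and promoter sequences are from RefSeq (GRCm38.p6). Python 3.11.15, pandas 2.3.3, numpy 2.4.6 and matplotlib 3.10.9 were used.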

Additional observations from a re-analysis of the deposited data

How the results depend on the processing

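All 12 called members kept their direction in 14 planned and 3 added fits, and Ndufa12, Uqcrfs1 and Atp5sl were called in all 14 planned ones. The count of members called higher, 11 in the report, was 7 without a filter, 18 with quantile scaling (15 with upper-quartile scaling), 26 with the replicate block and 7 without a variance trend. It ran from 2 to 8 when a single library was left out, with 6 without DMSO replicate 2, 7 without DMSO replicate 3, 4 without CHIR99021 replicate 1, 7 without CHIR99021 replicate 2 and 2 without CHIR99021 replicate 3. Leaving out both libraries of replicate number 1, 2 or 3, chosen after seeing the data, left 0, 7 and 0 higher, and without number 3 also 0 lower, while 1088, 1337 and 187 genes were called in all. The count lower, 1, was 7 with the block. The related lists had 5 called higher, and 3 without a filter, 8 and 10 with upper-quartile and quantile scaling, 16 with the block, 3 without a variance trend and 0 to 4 on leaving libraries out; their 3 called lower became 7 with the block and 0 to 3 on leaving libraries out. The block kept the 12 calls and their direction. Uncalled members changed sign near 0: Cox6b1 to -0.0017 with quantile scaling, and, with upper-quartile and quantile scaling, Ndufv3 to 0.0303 and 0.0193 and Sdhb to 0.0152 and 0.0004. On leaving libraries out, log2 changes ran from -0.0886 to 0.189 for Atp5g2, -0.0374 to 0.093 for Cox6a1, -0.617 to 0.606 for Cox6a2, -0.0658 to 0.127 for Cox6b1, -0.0158 to 0.241 for Cox7a2l, -0.243 to 0.123 for Ndufv3, -0.0955 to 0.0113 for Sdhb, -0.208 to 0.0307 for Uqcrb and -0.0451 to 0.22 for Uqcrh. The cause was not tested. With 3 libraries per group and no fragment counts, changes of a few percent, such as that of the complex I sum, were not resolved.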
